A study of Homo sapiens with 27 samples.

Results

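O6-methylguanine was mapped in LN-229 cells that had received temozolomide (TMZ) 3 times or 1 time, and the libraries of both schedules were compared. LN-229 is an established human glioblastoma cell line, and the cells compared were of the genotype labelled WT, beside which the series holds MGMT-transfected cells. All 6 libraries, 3 labelled as 3x and 3 as 1x, came from cells exposed to 1 mM TMZ in growth medium. They were chosen by their labels from 27 libraries of the series. Repeated exposures were spaced by 4 h. Extraction followed the first exposure by 24 h in both groups, so that the last dose of the 3x schedule preceded extraction by 16 h. The 6 WT libraries that received 1% DMSO, the solvent, on the same schedules served as background, and 3 libraries of naked DNA treated with 1 mM TMZ served as the reference for regional densities. By their labels this naked DNA came from WT (non-transfected), WT and MGMT-transfected cells, 1 library each, and the reference drops out of the log2 differences between schedules of a region's share of G sites. The labels number 3 replicates per group without saying whether they came from separate cultures, so p-values measure the spread between these libraries, which may be technical. Each library is a list of single positions where a polymerase stopped on immunoprecipitated DNA, with the base found there.

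TMZ breaks down in water to a methylating agent that modifies DNA at several places, most often at ring nitrogens of guanine and adenine and less often at the O6 atom of guanine. O6-methylguanine pairs with thymine as well as cytosine, and the cycles of mismatch repair that follow are the main route to cell death from the drug. The MGMT protein removes the methyl group in a single step and is used up by it, and glioblastomas with a silenced MGMT gene respond better to the drug.

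The sequences below are of marked guanines that recurred after 3 exposures, a selected part of all marked guanines. In the promoter windows of the RefSeq table (GRCh38.p14), each 300 bases long, 32 guanines were marked in all 3 libraries of the 3x group, whereas 1 was marked in all 3 libraries of the 1x group. The libraries marked 4524, 8000 and 13699 promoter guanines in the 1x group and 19840, 31566 and 32154 in the 3x group. The part of these totals in the contrast was not tested. Of the 32, 29 lay far enough inside a window to print 10 bases on either side. In 28 of the 29 the base before the guanine was a purine, in 19 of them another G, and in 16 the base after it was C. Over all marked promoter guanines of the 3x libraries a purine came before 79.2%, 82.0% and 80.8%. Of all promoter guanines 58.4% follow a purine and 33.1% follow a G. Relative to all promoter guanines, those after a G were marked 1.47 ± 0.0331 times as often in the 3x group, and those before a C 0.997 ± 0.0278 times (SD, n = 3 each). The 11 that lie in a promoter of a protein-coding gene and in no annotated gene are given 5′ to 3′ on the marked strand, with the marked guanine in capitals.
SYDE2 (chr1:85201167-85201187, plus strand): tttcgtagtaGtcggcgtcgt
TTL (chr2:112481984-112482004, minus strand): gagacccgcgGcggtgggcgc
KIF2A (chr5:62306051-62306071, minus strand): cagctctgcaGcggggtgggc
FBN2 (chr5:128538283-128538303, plus strand): ggggcgcgggGcgggccggcg
RMND5B (chr5:178130779-178130799, plus strand): ccgggccggaGggactcggaa
NOL7 (chr6:13615201-13615221, minus strand): tggcctgtagGcagtgggcgt
SAMTOR (chr7:112940061-112940081, plus strand): tccaggcctgGgtgctcatct
FMC1 (chr7:139340288-139340308, plus strand): aaaaggtccgGctgcttccgg
SEC23IP (chr10:119892514-119892534, plus strand): cagaacctgcGgggaccacgt
MLYCD (chr16:83899036-83899056, minus strand): cgcgagcccgGctggggacgc
PLEKHJ1 (chr19:2236391-2236411, minus strand): acgcagcggaGgcgggcggca
In 10 of these 11 windows a purine preceded the marked guanine, 6 times a G, and none of the 11 positions was marked in a library of the 1x group. Of all 29 positions, 4 were also marked in a library of the 1x group. TTL adds tyrosine to tubulin, KIF2A is a kinesin that takes microtubules apart, FBN2 is a fibrillin of the extracellular matrix and MLYCD decarboxylates malonyl-CoA. SEC23IP, a protein of vesicle transport, gave the only window with a C before the guanine. The positions were picked for recurrence after 3 exposures, so the absence of these 11 after 1 exposure is a description.

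How densely the groups marked 1 promoter is shown for SF1, a splicing factor, at chr11:64778543-64778792 on the minus strand. Its window held the most guanines marked after 3 exposures among the windows considered, those of protein-coding genes whose upstream 250 bases touch no annotated gene. Capitals mark a G of this strand, or a C whose partner G on the other strand was marked, in any of the 3 libraries of a group.
SF1, 3 exposures: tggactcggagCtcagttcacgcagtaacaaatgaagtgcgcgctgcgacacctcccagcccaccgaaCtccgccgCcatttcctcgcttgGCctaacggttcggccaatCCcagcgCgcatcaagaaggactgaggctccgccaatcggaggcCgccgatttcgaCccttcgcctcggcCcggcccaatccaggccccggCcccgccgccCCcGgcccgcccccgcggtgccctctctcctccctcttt
SF1, 1 exposure: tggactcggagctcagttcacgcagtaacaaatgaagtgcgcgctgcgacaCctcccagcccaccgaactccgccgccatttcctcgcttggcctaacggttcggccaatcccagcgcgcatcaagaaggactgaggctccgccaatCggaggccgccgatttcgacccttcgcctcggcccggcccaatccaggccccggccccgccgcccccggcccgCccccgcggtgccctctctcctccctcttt
After 3 exposures 15 of 170 available guanines of both strands were marked, 2 on the printed strand and 13 on the other, and after 1 exposure 3 were marked, all on the other strand. As the window was picked for its marks after 3 exposures, this contrast is a description. The 3 libraries of the 3x group marked 4, 4 and 7 of them and those of the 1x group 0, 1 and 2. Each library thus marked few of the guanines open to it, and no guanine here was marked in more than 1 library of a group.

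The libraries differed in depth and fell into sets that shared non-G positions. Sites with a score of 30 or more on chromosomes 1 to 22 and the mitochondrial chromosome numbered 1856596, 4489279 and 5013323 in replicates 1, 2 and 3 of the 1x group and 5904802, 8553518 and 7956976 in those of the 3x group. The share of sites with such a score was 65.8% in replicate 1 of the 1x group and 78.7% to 86.5% in the other 5. Positions with bases other than G that were marked in 2 libraries sorted the series into 5 sets. Pairs of libraries that shared more than 1.6 times the median over the 351 pairs were joined into a set, pairs from different sets shared at most 1.40 times it, and the limit was chosen after these values were seen. Replicate 1 of the 1x group was in set 1 with no library of the 3x group. Replicate 2 of the 1x group shared set 2 with replicate 1 of the 3x group, and the other 3 libraries were in set 3. The labels name no batch, so values within sets 2 and 3 are given beside the main comparisons. With 3 libraries against 3, the exact two-sided permutation test used for single values cannot go below p = 0.1, and 7 such comparisons were adjusted together.

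Guanine took a larger share of the sites after 3 exposures than after 1. G made up 44.8%, 41.9% and 52.6% of sites in replicates 1 to 3 of the 1x group and 59.7%, 64.1% and 62.6% in the 3x group. Every library of the 3x group lay above every library of the 1x group. The means were 46.4% ± 5.51 (SD, n = 3) and 62.1% ± 2.24 (SD, n = 3), 15.7 percentage points apart (exact permutation p = 0.1, Benjamini-Hochberg adjusted p = 0.14 over the 7 comparisons). Within set 2 the difference was 17.8 points and within set 3 it was 10.8 points. WT cells given solvent had 22.3% ± 4.80 (SD, n = 3) G sites after 1 exposure and 20.8% ± 2.45 (SD, n = 3) after 3, and naked DNA under TMZ had 69.0% ± 1.67 (SD, n = 3). The 3x group thus lay between the 1x group and naked DNA.

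The same contrast was taken as G sites per site at another base, which uses the non-G sites of a library as its own yardstick. This ratio was 0.812, 0.721 and 1.11 in the 1x group and 1.48, 1.78 and 1.67 in the 3x group, again without overlap. On the log2 scale the groups differed by 0.92, a ratio of 1.90 (exact permutation p = 0.1, adjusted p = 0.14). The difference was 1.04 within set 2 and 0.64 within set 3. Solvent libraries had 0.290 ± 0.0825 (SD, n = 3) G sites per non-G site after 1 exposure and 0.264 ± 0.0399 (SD, n = 3) after 3, a log2 difference of -0.11. The change with exposure number under TMZ exceeded that under solvent by 1.03 on the log2 scale. When exposure labels were permuted within treatment (400 arrangements, smallest possible p 0.005), the exact p was 0.035, or 0.0875 adjusted over the 5 measures compared in this way. 

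Once the solvent ratio of the same exposure number was taken off, 0.522, 0.432 and 0.818 excess G sites per non-G site remained in the 1x group and 1.22, 1.52 and 1.41 in the 3x group. The mean excess was 0.591 ± 0.202 (SD, n = 3) against 1.38 ± 0.154 (SD, n = 3), and the ratio of the means was 2.34. With the TMZ libraries of set 2 alone that ratio was 2.82, and with those of set 3 it was 1.79. It thus differed by set while its direction did not. The solvent value taken off was in each case the mean over all 3 solvent libraries, which came from several sets. The ratio counts marked positions in a library and not lesions per cell, and non-G sites serve as an equal background in it by assumption.

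**Figure D1:**
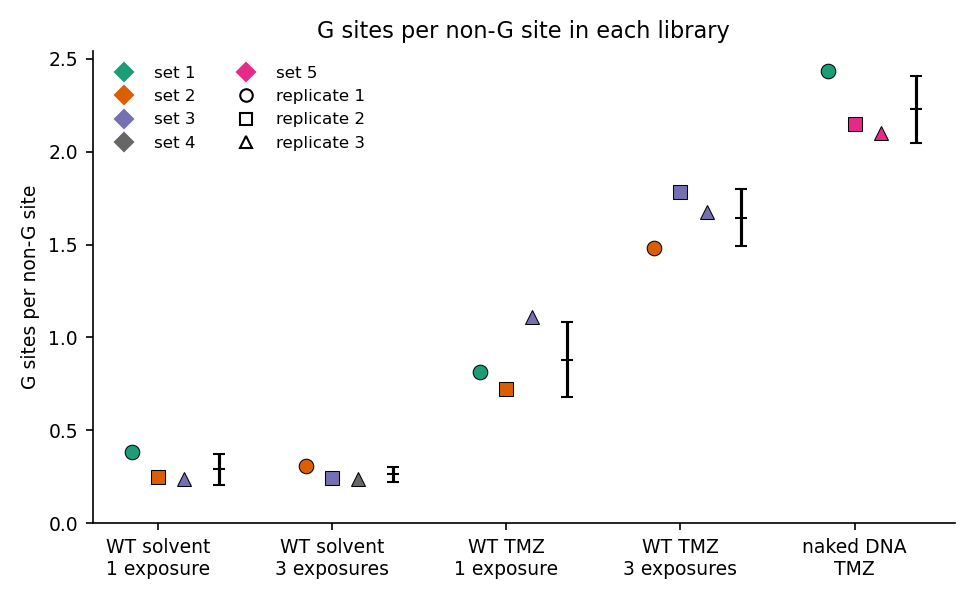
G sites per non-G site (y axis, no unit) in each WT library and in naked DNA. Each point is a library, colours are the sets of libraries and shapes the replicate numbers, and the bars show mean and SD of 3 libraries. The 3x TMZ libraries lie between 1.48 and 1.78, above the 1x TMZ libraries and below naked DNA, and solvent libraries lie lowest.

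The counts of G sites differed in the same direction. There were 831864, 1881132 and 2634821 G sites in the 1x group and 3524253, 5480962 and 4981500 in the 3x group, and the groups did not overlap. The ratio of the geometric means was 2.86 (log2 difference 1.51, exact permutation p = 0.1, adjusted p = 0.14). Replicate 1 of the 1x group, the smallest library, weighs on this value, and the log2 difference was 0.91 within set 2 and 0.99 within set 3. All sites together differed by 1.09 on the log2 scale, by 0.64 without that replicate, by 0.40 within set 2 and by 0.72 within set 3. The read totals behind these lists are not given in the sources used here, so depth and number of lesions cannot be told apart in them.

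The other bases were compared among themselves. A sites made up 19.8% ± 1.53 (SD, n = 3) of sites in the 1x group and 14.9% ± 0.421 in the 3x group, C sites 12.2% ± 1.48 and 8.02% ± 0.588, and T sites 21.6% ± 2.56 and 14.98% ± 1.27. All 3 shares were therefore lower where the G share was higher. Among them A kept more of its share than C. A sites per C site were 1.55, 1.62 and 1.73 in the 1x group and 1.77, 1.94 and 1.87 in the 3x group, with no overlap (difference 0.227, exact permutation p = 0.1). The ratio was 0.150 higher within set 2 and 0.171 higher within set 3, and solvent libraries had 1.42 ± 0.0942 and 1.42 ± 0.0338 (SD, n = 3 each). In naked DNA under TMZ it was 3.68 ± 0.900 (SD, n = 3). The log2 change of this ratio under TMZ exceeded that under solvent by 0.19 (exact permutation p = 0.095, adjusted p = 0.131). T sites per C site were 1.71, 1.83 and 1.81 in the 1x group and 1.91, 1.89 and 1.81 in the 3x group, with overlap (exact permutation p = 0.2, difference 0.0865, and 0.0493 without replicate 1 of the 1x group).

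Promoter windows, where the sequence gives the number of bases that could be marked, allowed rates per available base. Marked G per 1000 available G was 0.870, 1.54 and 2.63 in the 1x group and 3.81, 6.07 and 6.18 in the 3x group. The rate at A was 0.282, 0.554 and 0.698 against 0.733, 1.06 and 1.16 per 1000 available A. Relative to the rate at C and T of the same library, G was marked 3.03, 2.84 and 4.17 times as often in the 1x group and 5.54, 6.74 and 6.01 times as often in the 3x group. The groups did not overlap on this measure (difference 2.75, exact permutation p = 0.1, 2.71 within set 2 and 2.20 within set 3). The same relative rate was 1.119 ± 0.433 (SD, n = 3) in solvent libraries after 1 exposure, 1.05 ± 0.184 (SD, n = 3) after 3, and 11.8 ± 3.30 (SD, n = 3) in naked DNA. For A the relative rate was 1.04 ± 0.0640 in the 1x group and 1.121 ± 0.0532 in the 3x group (SD, n = 3 each), and the groups overlapped. At least 1 marked guanine was found in 84.7% of 33725 windows in the 3x group as a whole and in 53.0% in the 1x group.

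O6-methylguanine formed by TMZ is known to favour guanines that follow a purine, which makes the preceding base a fingerprint of the drug. Neighbours were first read from positions that solvent or naked DNA libraries had also marked. Only G sites whose preceding position was marked there could be counted, and this subset need not stand for all G sites. Within it, a purine preceded 84.1%, 80.1% and 85.5% of G sites in the 1x group and 85.5%, 87.7% and 87.7% in the 3x group. The lowest 3x library, at 85.45%, lay just below the highest 1x library, at 85.53%, so the groups overlapped (difference 3.71 points, exact permutation p = 0.2, adjusted p = 0.233). The difference was 5.39 points within set 2 and 2.14 within set 3, and without replicate 2 of the 1x group it was 2.13. Read from the promoter sequences, where a purine precedes 58.4% of all guanines, the shares were 78.3%, 75.7% and 80.2% against 79.2%, 82.0% and 80.8%, and again overlapped. The difference of 2.62 points was 3.57 within set 2, 1.20 within set 3 and 1.43 without replicate 2 of the 1x group. Solvent libraries had 60.0% ± 6.60 (SD, n = 3) after 1 exposure and 57.4% ± 3.12 (SD, n = 3) after 3 in promoters, close to the share available. In promoters the change with exposure number under TMZ exceeded that under solvent by 5.29 points (exact permutation p = 0.25, adjusted p = 0.25).

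The excess over solvent was examined in promoters and with marked neighbours. After subtraction of the solvent control of the same exposure number, a purine preceded 84.2%, 84.2% and 84.9% of the excess guanines of promoters in the 1x group and 82.0%, 84.5% and 83.0% in the 3x group. The difference was now -1.24 points, with the opposite sign (exact permutation p = 0.3), and it was -2.19 within set 2 and -1.11 within set 3. Subtracted values within a set used its TMZ libraries and the mean of all solvent libraries of an exposure number, whatever their set. With marked neighbours, read here from naked DNA positions alone, the subtracted shares were 94.7% ± 0.669 and 95.3% ± 0.600 (SD, n = 3 each). The unsubtracted shares also used solvent positions, so their levels are not comparable with these. The difference between the groups was 0.672 points (exact permutation p = 0.3, 0.692 within set 2 and 0.403 within set 3). That difference was 0.317 without replicate 2 of the 1x group and 1.02 without replicate 1 of the 3x group, and the one in promoters was -0.655 without replicate 1 of the 3x group and -1.90 without its replicate 2. The subtracted differences had opposite signs in the 2 counts, which differ both in the guanines covered and in how neighbours were read, and the groups overlapped in both.

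**Figure D2:**
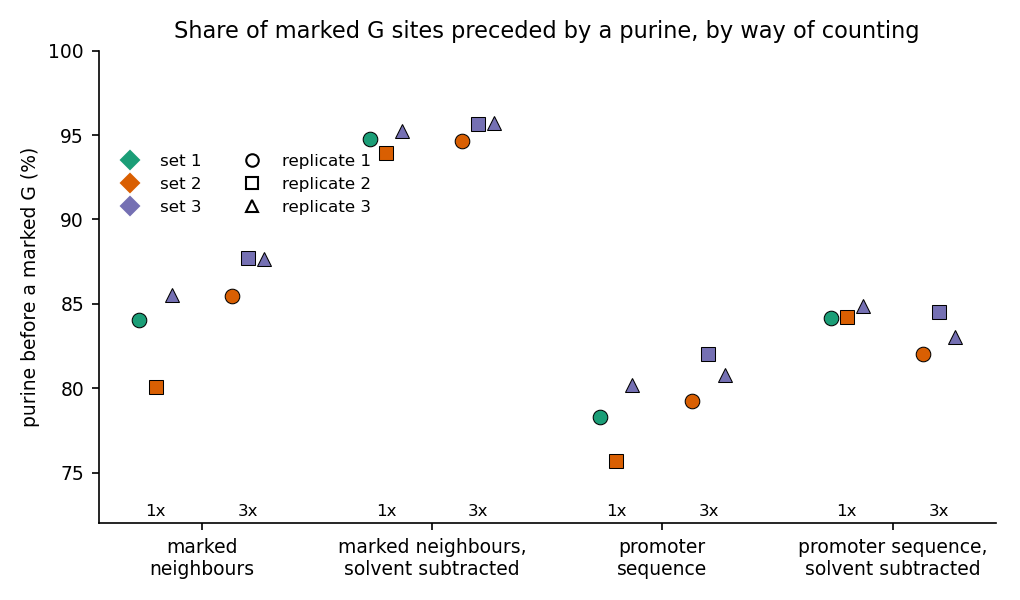
Percent of marked G sites preceded by a purine (y axis, starting at 72%) in the 6 libraries, counted in 4 ways along the x axis. With marked neighbours only G sites with a known preceding base count, and the subtracted form reads that base from naked DNA positions alone. Points are libraries, coloured by set and shaped by replicate, with the 1x group left and the 3x group right in each pair. The groups overlap in all 4 ways, and the subtracted promoter shares of the 3x group lie at 82.0% to 84.5% against 84.2% to 84.9% in the 1x group.

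Among the 16 combinations of the bases before and after a marked guanine, the shares of GGG and GGC were higher by the most. GGG made up 15.3%, 14.7% and 16.8% of G sites with both neighbours known in the 1x group and 17.3%, 19.3% and 18.8% in the 3x group (difference 2.85 points). GGC made up 9.54%, 8.84% and 10.9% against 11.3%, 12.7% and 12.5% (difference 2.44 points), and AGC was next with 0.91 points, or 0.52 without replicate 1 of the 1x group. TGT was lower by the most, from 4.63% ± 0.725 to 3.13% ± 0.437 (SD, n = 3 each), followed by TGA with a difference of -1.15 points and AGT with -0.90 points, or -0.48 without replicate 1 of the 1x group. None of the 16 passed an adjusted p of 0.05 (0%, smallest Benjamini-Hochberg adjusted p = 0.178 from exact permutation tests), which 3 against 3 libraries cannot reach. The groups did not overlap in 9 of the 16 (56.2%). The GGG difference was 2.61 points within set 2 and 2.23 within set 3, and the TGT difference -1.77 and -1.05 points. In promoters, per available guanine, the relative rate of GGG was 1.46 ± 0.109 in the 1x group and 1.603 ± 0.0599 in the 3x group, and that of TGT 0.456 ± 0.0812 and 0.327 ± 0.0399 (SD, n = 3 each). Without replicate 2 of the 1x group these differences were 0.0825 for GGG and -0.0828 for TGT. After solvent subtraction the TGT rate was 0.189 ± 0.0258 against 0.239 ± 0.0314, with the opposite sign, and GGG kept its direction at 1.53 ± 0.131 against 1.67 ± 0.0571. The subtracted GGG values overlapped (exact permutation p = 0.2), and their difference of 0.137 was 0.0618 without replicate 2 of the 1x group. AGC, per available guanine, went the other way, from 1.35 ± 0.0398 to 1.30 ± 0.0367, and from 1.52 ± 0.120 to 1.35 ± 0.0476 with solvent subtracted (SD, n = 3 each, exact permutation p = 0.2 for both). For GGC the subtracted rate was 1.73 ± 0.105 in the 1x group and 1.61 ± 0.0189 in the 3x group.

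Mitochondrial DNA is present in many copies per cell and the number of its G sites was nearly the same in 5 of the 6 libraries. Replicates 1 to 3 of the 1x group had 2238, 3870 and 3878 mitochondrial G sites and those of the 3x group 3927, 3886 and 3972. Apart from replicate 1 of the 1x group, the smallest library, the counts spanned 3870 to 3972 while all G sites of the same libraries spanned 1881132 to 5480962. Over the 27 libraries 5354 mitochondrial guanines were marked at least once, 3835 of them on the minus strand. The 3x libraries marked 73.3%, 72.6% and 74.2% of these and the 1x libraries 41.8%, 72.3% and 72.43%. No library of the 6 had more than 2 mitochondrial G sites that no other library of the series held.

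As a percentage of all G sites, the mitochondrial part was lower in the 3x group, at 0.111%, 0.0709% and 0.0797% against 0.269%, 0.206% and 0.147%. The log2 difference was -1.23 (exact permutation p = 0.1, adjusted p = 0.14), -0.88 within set 2 and -0.97 within set 3. Within mitochondrial sites G made up 32.0% ± 3.28 (SD, n = 3) in the 1x group and 35.3% ± 1.07 (SD, n = 3) in the 3x group, with overlap (exact permutation p = 0.3, 5.00 points higher within set 2 and 4.755 within set 3, 1.96 without replicate 2 of the 1x group and 5.17 without its replicate 1).

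**Figure D3:**
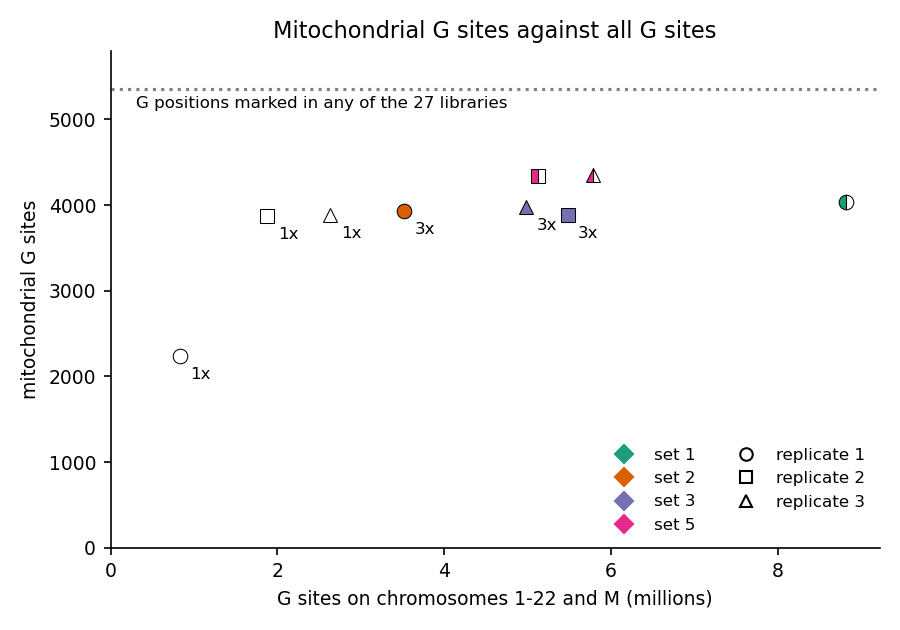
Mitochondrial G sites (y axis) against all G sites (x axis) for the 1x (open), 3x (filled) and naked DNA (part-filled) libraries, shaped by replicate, with the fill coloured by set. The dotted line marks the 5354 mitochondrial guanines marked in any library. Of the 6 cell libraries, 5 lie between 3870 and 3972 at very different totals.

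The distribution over nuclear DNA was set against that of naked DNA. G density in protein-coding gene bodies over that between genes, on the log2 scale and relative to naked DNA, was -0.01, -0.09 and -0.02 in the 1x group and -0.004, 0.02 and 0.04 in the 3x group. The groups did not overlap, and the difference was 0.06 (exact permutation p = 0.1, adjusted p = 0.14, 0.09 within set 2 and 0.05 within set 3). Without replicate 2 of the 1x group it was 0.03. Around gene ends, within 1 kb, the values were -0.11, -0.40 and -0.15 against -0.06, -0.04 and 0.08 (difference 0.21, exact permutation p = 0.1, 0.33 within set 2 and 0.17 within set 3). In promoter windows they were -0.33 ± 0.19 and -0.07 ± 0.11 (SD, n = 3 each), a difference of 0.26 without overlap (0.40 within set 2 and 0.23 within set 3). Without replicate 2 of the 1x group, the lowest library in all 3 measures, gene ends differed by 0.12 and promoters by 0.15. Solvent libraries were lower around gene ends, at -0.48 ± 0.21 after 1 exposure and -0.57 ± 0.10 after 3 (SD, n = 3 each). With solvent subtracted the differences were 0.06 for gene bodies, 0.21 for gene ends and 0.26 for promoters, or 0.02, 0.09 and 0.11 without replicate 2 of the 1x group, and the groups then overlapped in all 3. The change with exposure number at gene ends was larger under TMZ than under solvent by 0.30 (exact permutation p = 0.105, adjusted p = 0.131).

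Megabase bins grouped by their protein-coding genes gave the same gradient. In the 319 bins without such a gene, the G-site share relative to naked DNA was 0.03, 0.20 and 0.05 (log2) in the 1x group and 0.01, -0.03 and -0.07 in the 3x group. In the 215 bins with 20 or more genes it was -0.07, -0.27 and -0.08 against -0.05, 0.005 and 0.06. The groups were apart in all 5 classes of bins, by -0.12 in bins without genes and 0.15 in the richest (exact permutation p = 0.1 for each). In the richest bins the difference was 0.22 within set 2 and 0.11 within set 3. Replicate 2 of the 1x group stood apart from its group in both classes, and without it the differences were -0.07 in bins without genes and 0.08 in the richest. Solvent libraries had 0.20 ± 0.13 and -0.24 ± 0.14 (SD, n = 3 each) there after 1 exposure. With solvent subtracted, the richest bins had 0.004, -0.32 and -0.03 in the 1x group and -0.01, 0.05 and 0.11 in the 3x group, and the groups overlapped in all 5 classes (exact permutation p = 0.2 in the richest, where the difference was 0.17, or 0.07 without replicate 2).

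**Figure D4:**
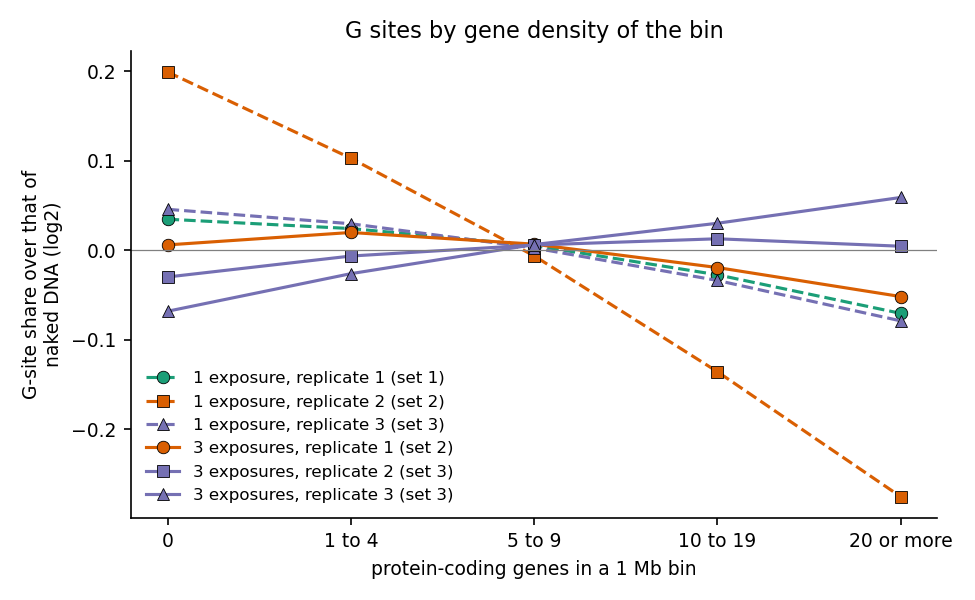
G-site share relative to naked DNA (y axis, log2) in 1 Mb bins grouped by their number of protein-coding genes (x axis), with a line per library, dashed for 1 exposure and solid for 3. Replicate 2 of the 1x group runs from 0.20 to -0.27, and the other 5 lines lie between -0.08 and 0.06.

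Whole chromosomes were compared in the same way. The 3x group was higher on chromosomes 22, 19 and 17, by 0.13, 0.13 and 0.10 (log2), and lower on chromosomes 4 and 13, by differences of -0.07 and -0.05. The groups did not overlap on 9 of 22 chromosomes (40.9%), chromosomes 22 and 13 among them. On chromosomes 19, 17 and 4 they overlapped. Replicate 2 of the 1x group was the farthest library from the 3x group on all 5, and without it the differences were 0.07, 0.06, 0.04, -0.03 and -0.03 on chromosomes 22, 19, 17, 4 and 13.

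The unevenness of the map relative to naked DNA was compared after drawing 831864 G sites from each library. The standard deviation over 1 Mb bins of log2 G density relative to naked DNA was 0.118, 0.239 and 0.129 in the 1x group. It was 0.123, 0.111 and 0.123 in the 3x group, where counting noise of the drawn sites alone would give 0.0823. The naked DNA reference, partly from MGMT-transfected cells, does not drop out of this measure, and its part was not tested. The groups overlapped (difference -0.0427, exact permutation p = 0.3, adjusted p = 0.3), with a difference of -0.116 within set 2 and -0.0121 within set 3. Without replicate 2 of the 1x group the difference was -0.00433, and without its replicate 1 it was -0.0648. Close pairs of marked guanines on the same strand, at most 10 bases apart, were 0.878% ± 0.112 of the drawn sites in the 1x group and 0.740% ± 0.0495 in the 3x group (SD, n = 3 each), without overlap (exact permutation p = 0.1). The difference was -0.138, or -0.0757 without replicate 1 of the 1x group, -0.101 within set 2 and -0.0776 within set 3. The drawn sites include mitochondrial ones, whose share of all G sites was 0.207% ± 0.0609 and 0.0874% ± 0.0213 (SD, n = 3 each). Their part in the close-pair difference was not tested. The shares of drawn sites with a neighbour within 1000 bases were 32.2% ± 0.724 and 32.5% ± 0.432, and overlapped.

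No single 1 Mb bin passed the test between schedules. With limma voom on all 24 cell libraries, 0 of 2752 bins (0%) had a Benjamini-Hochberg adjusted p of at most 0.05, 73 had an unadjusted p below 0.05 (2.65%; 62 lower, 2.25%), and limma-trend also called 0 with 65 such bins. The 73 became 69, 22 and 92 without replicates 1, 2 and 3 of the 1x group and 44, 20 and 14 without those of the 3x group. Such bins numbered 56 of 2777 without the filter on low counts, 84 of 2777 with no minimum score and 170 of 2742 after the equal draw. They numbered 384 of 2750 with the 6 libraries alone, 495 of 2750 with replicate number as a block and 662 of 2752 with the set of libraries as a block. Of the bins, 94.5% had an absolute log2 fold change below 0.2, against a median standard error of 0.0998. The groups did not overlap in 715 bins (26%). With the set of libraries as a block 85 bins passed (3.09%), 78 of them higher and 7 lower in the 3x group, and between solvent schedules 1 bin passed under that block (0.0363%). For the difference between TMZ and solvent, 0 bins passed under the block (smallest limma adjusted p = 0.115, 408 with an unadjusted p below 0.05). Without the block 0 bins passed between solvent schedules and 124 had an unadjusted p below 0.05, and for the difference between TMZ and solvent the counts were 0 and 86. The 124 became 198 and the 86 became 193 without replicate 2 of the 1x solvent group. Without replicate 3 of the 3x TMZ group the 86 became 30. The bin with the smallest p, chosen after its values were seen, was chr21:8000001-9000000 with 33, 97 and 100 G sites in the 1x group and 112, 128 and 112 in the 3x group. Its log2 fold change was -0.76 (SE 0.17, limma adjusted p = 0.518).

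Single genes were tested in the same way. Of 16474 protein-coding genes tested by limma voom, 0 (0%) passed an adjusted p of 0.05, 1397 had an unadjusted p below 0.05 (8.48%), and limma-trend called 0 with 57 such genes. The 1397 became 1384, 579 and 1595 without replicates 1, 2 and 3 of the 1x group and 1454, 1131 and 889 without those of the 3x group. Such genes numbered 649 of 10950 after the equal draw and 1838 of 15711 with the 6 libraries alone. With the set of libraries as a block 0 genes passed and 469 had an unadjusted p below 0.05. Fitted on the 6 libraries alone, 6 genes passed (0.0382%, 4 higher and 2 lower), and with no minimum score 15 passed (0.088%, all lower). Between solvent schedules 0 genes passed (882 with an unadjusted p below 0.05), 1 passed with the set block (0.00607%), and limma-trend called 4 (0.0243%, 1 higher and 3 lower), with 1960 at an unadjusted p below 0.05. The median log2 fold change over all genes tested was -0.02, and the groups did not overlap in 15.5% of the genes. The lists of genes that follow were chosen with earlier results of these data known, and they describe shares of the G sites of a library and not absolute lesion counts.

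The giant genes of common fragile sites, which replicate late and break under replication stress, tended to a smaller share of G sites after 3 exposures. All 12 tested had a log2 fold change below 0, with a median of -0.21. None passed the adjusted threshold, 11 had an unadjusted p below 0.05 where 5.69% of all genes had one with a lower value, and the groups did not overlap in 10, against 9.76% of all genes that were lower in that way. The median standard error was 0.0678 for these 12 and 0.226 over all genes tested. An equal fold change thus reached a low p more readily in them. LRP1B, a large lipoprotein receptor, had 509, 1366 and 1736 G sites in the 1x group and 2154, 3305 and 2909 in the 3x group, a log2 fold change of -0.26 (SE 0.07, limma adjusted p = 0.314). NAALADL2, a peptidase-like protein, had 309, 818 and 990 against 1296, 2005 and 1699, a log2 fold change of -0.24 (SE 0.06, limma adjusted p = 0.264). WWOX, an oxidoreductase with WW domains, had the value nearest to 0, -0.11 (SE 0.06). Raw counts of each of the 12 were higher in every 3x library than in every 1x library. The fold changes are of shares, which did not overlap between the groups in 10 of the 12 and overlapped for MACROD2 and LSAMP.

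Of all 203 genes of at least 600 kb, the 12 among them, 94.1% had a log2 fold change below 0, against 52.7% of all genes, with a median of -0.17, and 61.1% were lower with an unadjusted p below 0.05, against 5.69% of all genes, while 0 passed the adjusted threshold. Their summed share relative to naked DNA differed by -0.09 (log2) between schedules, and by -0.06 without replicate 2 of the 1x group. Precision in the 203 genes was not matched to that of all genes, and its part in the 61.1% was not tested. Summed over the 12 fragile-site genes, the G-site share relative to naked DNA was 0.06, 0.24 and 0.07 (log2) in the 1x group and 0.02, -0.004 and -0.06 in the 3x group. The difference was -0.14 and, without replicate 2 of the 1x group, -0.08. Solvent libraries stood at 0.24 ± 0.12 after 1 exposure and 0.24 ± 0.02 after 3 (SD, n = 3 each) for these genes. For the 10 long genes that are broadly transcribed the median log2 fold change was -0.10, and 9 of 10 were below 0. An unadjusted p below 0.05 was found for 3 of them, the smallest for SMYD3, a lysine methyltransferase, at -0.22 (SE 0.07, limma adjusted p = 0.425), and MSI2, an RNA-binding protein, was the one above 0, at 0.10 (SE 0.07).

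Repair genes showed no call. Of 9 mismatch repair genes 0 passed the adjusted threshold, 1 had an unadjusted p below 0.05 and 2 were above 0, with a median of -0.14. Of all genes tested, 8.48% had an unadjusted p below 0.05 and 52.7% a log2 fold change below 0. MSH6, a subunit of a mismatch-binding dimer, had 10, 16 and 30 G sites in the 1x group and 44, 71 and 69 in the 3x group, a log2 fold change of 0.22 (SE 0.23). PMS1 had the unadjusted p below 0.05, with a log2 fold change of -0.36 (SE 0.15, limma adjusted p = 0.507). Of the 11 genes of alkylation and base excision repair 10 were tested, 0 passed and 0 had an unadjusted p below 0.05, with a median of -0.15. MGMT itself had 79, 231 and 284 G sites against 382, 603 and 511, a log2 fold change of -0.14 (SE 0.10). MPG, the glycosylase that removes N-methylated purines, had 3, 4 and 4 against 10, 20 and 26, and among these 6 libraries it passed the filter on low counts only through the 3x group, so its difference is not read.

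Of 14 genes often altered in glioblastoma 12 were tested, 0 passed and 2 had an unadjusted p below 0.05, where 8.48% of all genes had one. PIK3R1, the regulatory subunit of PI3K and 1 of these 2, had 25, 62 and 80 G sites in the 1x group and 91, 141 and 136 in the 3x group, a log2 fold change of -0.35 (SE 0.16, limma adjusted p = 0.546). EGFR, a receptor tyrosine kinase, had 101, 183 and 268 against 382, 607 and 588, a log2 fold change of 0.03 (SE 0.10). CDKN2A and CDKN2B, neighbouring inhibitors of the cell cycle, had 0 G sites in each of the 6 libraries, and a count of 0 allows up to 3. MSH6, of similar length (26.96 kb against 27.57 kb for CDKN2A), held 10 to 71 G sites in the same libraries. Whether these cells carry the CDKN2A and CDKN2B locus was not tested. The median of the 12 was -0.13, and 3 were above 0.

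**Figure D5:**
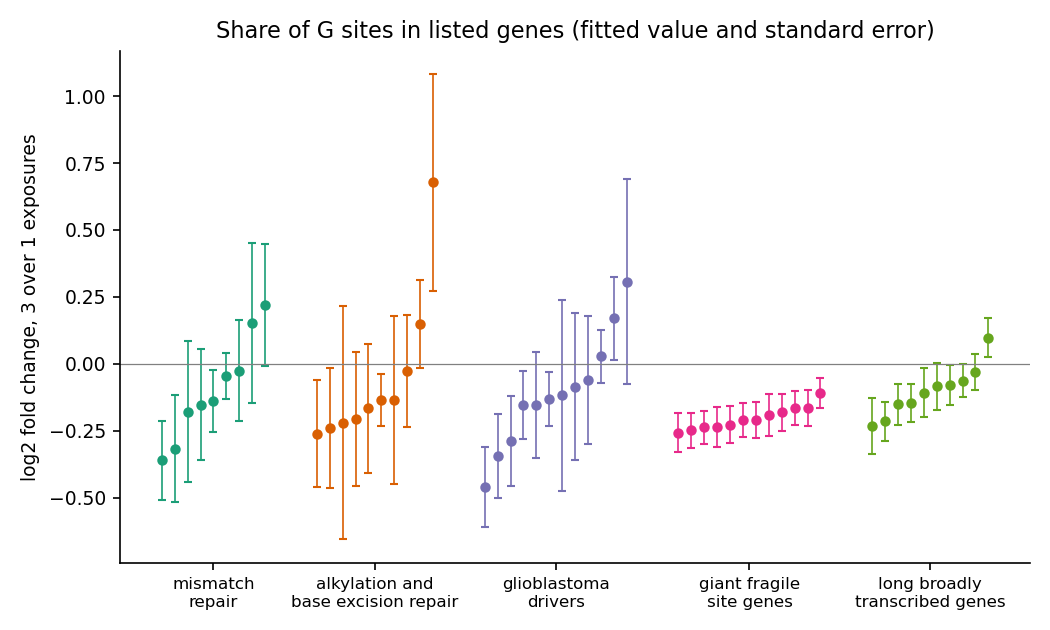
Fitted log2 fold change of the share of G sites, 3 over 1 exposures (y axis), for each tested gene of the 5 lists (x axis, sorted within a list), with points for the estimate and bars for its standard error. The 12 fragile-site genes lie between -0.26 and -0.11, and the shorter repair genes scatter on both sides of 0 with wider bars.

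Recurrence of positions was counted within and between schedules. After the equal draw, pairs of 1x libraries shared 1802 to 2371 nuclear G positions, pairs of 3x libraries 1929 to 2434, and pairs across schedules 1826 to 3136. The highest of these 15 values, 3136, belonged to replicate 2 of the 1x group and replicate 1 of the 3x group, which are of the same set. In promoters, the shared guanines were 2.55 to 4.40 times the number that the rates of both libraries would give for 1x pairs, 3.15 to 3.80 times for 3x pairs and 2.72 to 4.82 times across schedules. These ranges overlapped, and no test was made of them.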

How the data were processed

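O6-MeG-seq libraries of WT LN-229 cells after 3 or 1 TMZ exposures (3 replicates each) were compared. The deposited files list a chromosome, position, strand, base and a whole-number score from 0 to 42 for each site. The meaning of the score is not given in the sources used here. Each site counted once, and sites with a deposited score of 30 or more on chromosomes 1 to 22 and M were used. The submitters' processing notes name FastQC 0.11.9, Trimmomatic 0.38 and 0.39, cutadapt, Bowtie2 2.3.5.1, GATK 4.2.0.0, SAMtools 1.12, bedtools 2.29.2 and GRCh38. Sites on other chromosomes were not used here, and no sequence of chromosome 8 is printed.

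Neighbours came from positions marked in solvent or naked DNA libraries and, in promoters, from RefSeq sequences (GRCh38.p14), whose bases equalled those of all sites inside them. With marked neighbours, the solvent-subtracted purine share used naked DNA positions alone. Solvent values were scaled to non-G sites and averaged over the solvent libraries of an exposure number, whatever their set, before subtraction. Single values were compared by exact two-sided permutation. Bins and genes were kept where 3 or more libraries held 10 or more sites, and fitted with limma 3.58.1 (voom, R 4.3.3) on all 24 cell libraries, WT and MGMT-transfected, scaled by trimmed means, and tested on simulated data. Genes were named by a rule (adjusted p of at most 0.05 and no overlap, which none met, plus 5 lists). BBOX1 and the printed promoters were chosen after their values were seen. The members and lists were chosen with earlier results of these data known. Alternatives were score minimum, sets, blocks, draws and left-out libraries. Replicate numbers did not pair the samples: the deviations of same-numbered libraries over bins correlated at -0.345, -0.0911 and 0.353. Precision is limited by 3 libraries a group and by 831864 to 5480962 G sites per library.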

Additional observations from a re-analysis of the deposited data

Results flagged for a closer look

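The mean mitochondrial percentage of G sites differed between exposure numbers in opposite directions under TMZ and under solvent, which is why it is listed here. From 1 to 3 exposures its log2 value differed by -1.23 under TMZ and by 0.54 under solvent. The difference between both changes was -1.77 (exact permutation of exposure labels within treatment over 400 arrangements, p = 0.01, Benjamini-Hochberg adjusted p = 0.05 over the 5 measures compared in this way). Under TMZ each of the 3x libraries lay below each of the 1x libraries. Solvent libraries had 0.398% ± 0.0721 (SD, n = 3) after 1 exposure and 0.586% ± 0.157 (SD, n = 3) after 3. These solvent groups overlapped, and the change under solvent was not tested by itself. The number of mitochondrial G sites was 2101 ± 1214 and 1937 ± 205 (SD, n = 3 each) in these solvent groups, and nearly constant in 5 of the 6 TMZ libraries. The part that the total number of G sites has in this difference was not tested. With 3 libraries a group, no outlier test was applied.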

How the results depend on the processing

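Under each alternative run, the G share, the number of G sites and the mitochondrial percentage kept their direction and stayed within 1 SD between replicates of the reported value. The G-per-non-G change against solvent kept its direction and side of the threshold. Sets entered here as the mean of the differences within sets. Within set 3 alone the G share differed by 10.8 points, against 15.7 reported. The equal draw cannot move the expected mitochondrial percentage, so its agreement there carries no weight. The same holds for the replicate block, which cannot move a difference of means. Subtracting solvent moved the log2 difference of G sites per non-G site to 1.27. The purine difference was 6.17 points with no minimum score, 0.672 with solvent subtracted (neighbours from naked DNA alone) and -1.24, reversed, in promoters with solvent subtracted. With no minimum score the gene-body difference was 0.177 and the spread difference -0.132, and 15 genes passed, all lower. For bins, 85 passed with the set block, 1 with the equal draw of the 6 libraries alone, and 4 with these 6 without replicate 2 of the 1x group. For genes, 6 passed with the 6 libraries alone, and 2 with these without replicate 2 of the 1x group. Between solvent schedules 1 bin passed with the set block. The promoter values, the solvent subtraction other than for marked neighbours, the alternatives for solvent and for TMZ against solvent, and the fits on 6 libraries with a draw or without replicate 2 were added after seeing the data. Mitochondrial sites marked in no other library were 0 in some libraries and gave no log2 value.

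Leaving out each library in turn gave differences of 13.4 to 18.8 points for the G share, 1.04 to 1.87 for log2 G sites, 0.79 to 1.10 for log2 G per non-G, 2.13 to 4.87 points for the purine share, -1.46 to -1.02 for the mitochondrial log2 percentage, 0.0342 to 0.0739 for gene bodies and -0.0648 to -0.00433 for the spread. It gave 0 to 2 genes, 0 bins for TMZ, 0 to 1 for solvent and 0 for the difference between both. The 2 genes, both lower, came without replicate 3 of the 1x group, and the 1 bin without replicate 1 of the 1x solvent group. The replicate block gives the same mean differences by arithmetic (15.7 points for the G share, 0.92 for log2 G per non-G), so this agreement carries no weight. Its smallest possible sign-flip p was 0.25, and the fits with it called 0 bins and 0 genes. The median standard error was 0.226 over genes and 0.0998 over bins (log2), which limits the differences that could be called.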

Other observations

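Marked adenines in promoters shared a preference for the base that follows. Relative to all adenines of the same library, those followed by G were marked 1.53 ± 0.138 times as often in the 1x group and 1.73 ± 0.0951 times in the 3x group (SD, n = 3 each), against 1.18 ± 0.0220 and 1.22 ± 0.0991 in solvent libraries after 1 and 3 exposures and 1.77 ± 0.0382 in naked DNA. The TMZ groups overlapped (difference 0.193, exact permutation p = 0.2). Adenines followed by another A were marked 0.748 ± 0.0683 times as often as all adenines in the 1x group and 0.653 ± 0.0278 times in the 3x group, without overlap (exact permutation p = 0.1). Without replicate 2 of the 1x group the differences were 0.119 for a following G and -0.0563 for a following A.

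The gene with the smallest p-value between schedules was chosen after its values were seen. BBOX1, an enzyme of carnitine synthesis, had 30, 70 and 91 G sites in the 1x group and 71, 130 and 113 in the 3x group, a log2 fold change of -0.77 (SE 0.15, limma adjusted p = 0.0631).

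The log2 G density of bins, relative to naked DNA and after the equal draw, correlated between the 6 libraries at 0.0657 to 0.606 over 2699 bins. The lowest value was that of replicate 2 of the 1x group with replicate 3 of the 3x group, and the highest that of replicates 2 and 3 of the 1x group. Bins are not independent, and all 6 profiles share the naked DNA reference.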
